A study of Mus musculus with 16 samples.

Results

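The BH3-only genes encode proapoptotic members of the BCL2 family, and 7 of them were followed here in splenic dendritic cells (DCs) of mice with and without Trim33: Bcl2l11 (BIM), Bid, Bbc3 (PUMA), Pmaip1 (NOXA), Bmf, Bad and Bik. They were chosen by name, as 7 of the 17128 genes listed for plasmacytoid DCs (pDCs) and 7 of the 17721 genes listed for conventional DCs (cDCs). RNA-seq had been done on 16 libraries from C57BL/6 mice of 6 to 8 weeks, sorted from spleen as CD11c+ SiglecH+ pDCs, as SiglecH- MHC II+ CD24+ CD172a- cDC1s and as SiglecH- MHC II+ CD24- CD172a+ cDC2s. Every mouse carried Trim33 fl/fl. WT mice had no further allele, and conditional knockout (cKO) mice also carried Itgax-Cre, in which the promoter of the CD11c gene drives Cre recombinase. Each genotype gave 3 pDC libraries, 2 cDC1 libraries and 3 cDC2 libraries, described as biological replicates. By the study's description each library was pooled from several mice, with more mice for a cKO than for a WT library, so pool size and genotype cannot be told apart.

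Apoptosis through mitochondria is decided by the balance within the BCL2 family. Prosurvival members such as BCL2, BCL-XL, MCL1 and A1 hold the pore-forming effectors BAX and BAK in check, and BH3-only proteins bind those prosurvival members through a short helix, the BH3 region. BIM, truncated BID and PUMA bind all prosurvival members and can also engage BAX and BAK directly, whereas NOXA, BMF, BAD and BIK bind a narrower range of prosurvival partners. BIM is known in lymphocytes and myeloid cells as a main executor of death after growth factor withdrawal.

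The BH3 region is the feature that places these genes in one family, so the coding stretch around it is shown for the members in which it was read from the mouse genome (GRCm38, with GENCODE M21 transcripts). Each stretch holds 60 coding bases, 5′ to 3′ on the strand of the gene, and capitals mark the 18 bases of the core. The core was searched for in frame as a leucine codon, any 3 codons, a codon for glycine, alanine or serine, and an aspartate codon. The pattern was found at 1 place in each reading frame shown.
Bcl2l11: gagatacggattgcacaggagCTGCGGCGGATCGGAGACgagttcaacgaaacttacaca
Bid: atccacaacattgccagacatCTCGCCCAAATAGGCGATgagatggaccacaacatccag
Bbc3: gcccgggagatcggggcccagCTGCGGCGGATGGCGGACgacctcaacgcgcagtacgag
Bmf: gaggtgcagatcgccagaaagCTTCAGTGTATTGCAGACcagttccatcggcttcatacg
Bad: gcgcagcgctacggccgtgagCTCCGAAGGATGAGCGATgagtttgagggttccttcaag
Bik: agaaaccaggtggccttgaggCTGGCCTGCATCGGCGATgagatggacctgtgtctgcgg
The stretch of Bcl2l11 lies on the plus strand at chr2:128147129-128147188, in exon 3 of the 4 exons of its longest coding transcript. That of Bid is on the minus strand at chr6:120897277-120897336, in exon 4 of 6. Bbc3 has it on the plus strand at chr7:16313752-16313811, in exon 3 of 4. The Bmf stretch is on the minus strand at chr2:118545088-118545147, in exon 4 of 5, and that of Bad on the plus strand at chr19:6950771-6950830, in exon 3 of 4. The Bik stretch is split between exons 2 and 3 of 5 and spans chr15:83541441-83543122 on the plus strand. Against Bcl2l11, 34 of 60 bases are the same in Bmf, 33 in Bbc3, 31 in Bad, 26 in Bik and 24 in Bid. For each gene, only coding transcripts tagged as consensus coding sequence (CCDS) were searched. Of the 5 annotated coding transcripts of Bcl2l11, 4 so tagged hold this stretch, with reading frames from 110 to 196 codons. The deposited values are sums per gene and do not separate these isoforms, and they do not separate uncleaved from truncated BID, which is a protein event.

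Values are TPM, a level that is scaled to transcript length and library total and may be compared between genes. The pDC and cDC tables were normalized separately, so levels set across them are given side by side without a test. Library depth was estimated at 17.91 to 20.12 M reads. Replicate libraries of a group correlated at r = 0.991 to 0.997 over genes, and no pair held identical values. Trim33 was at 20.6 to 23.8 TPM in WT and 11.7 to 16.5 TPM in cKO pDCs, at 15.5 to 18.2 and 7.71 to 7.88 TPM in cDC1s, and at 17.2 to 20.6 and 7.13 to 8.07 TPM in cDC2s. It fell in cDC1s (log2 fold change -1.02 ± 0.13) and cDC2s (-1.17 ± 0.11), and in pDCs it differed by -0.68 ± 0.13 with an adjusted p of 0.0301, above the threshold. The groups did not overlap in any subset, and the values of whole genes include exons outside the deleted part. Summed over 6 subset markers (Xcr1, Clec9a and others), cDC1 genes were at 1450 to 1556 TPM in WT cDC1s and 177.5 to 199.8 TPM in WT cDC2s. The 6 cDC2 genes (Sirpa, Esam and others) were at 36.4 to 54.3 and 1286 to 1363 TPM, in the same order. The 6 pDC genes (Siglech, Bst2 and others) were at 12780 to 14740 TPM in pDC libraries and at most 250.8 TPM in cDC libraries. Thus the highest sum in each WT subset was that of its own list. In cKO cDC1s the cDC1 sum was lower, at 924.3 and 930.8 TPM. There 3 of 6 genes fell (Itgae, Cadm1 and Clec9a), beside 6.56% of all genes tested. The pDC sum there was 248.2 and 250.8 TPM against 146.1 and 157.9 TPM in WT cDC1s. Of its genes, 3 of 5 tested rose in cKO cDC1s (Bst2, Cox6a2 and Tcf4) and 1 fell (Ccr9), beside 15.8% and 6.56%. The cDC2 sum was 1124 to 1266 TPM in cKO cDC2s. There Esam, Mgl2 and Irf4 were called, 1 higher and 2 lower, beside 3.59% and 3.56% of all genes tested. The markers of T, B and NK cells, neutrophils, monocytes and macrophages, erythroid cells and platelets were 36 genes. Of these 20 were tested in pDCs and 18 in cDCs, and in pDCs 0 were called between genotypes. In cDC1s 2 rose (Csf1r and Ly6c2) and 2 fell (Ms4a1 and Vcam1), beside 15.8% and 6.56% of all genes tested. In cDC2s 1 rose (Csf1r) and 1 fell (Ms4a1), beside 3.59% and 3.56%. In pDCs all 7 monocyte and macrophage genes had a positive log2 fold change. An unadjusted p under 0.05 was found for 6 of these genes, beside at least 2131 of the 11299 genes tested. Their sums were 4836 to 5512 TPM in WT and 5719 to 5821 TPM in cKO. Most of each sum was Ly6c2 (mean 5013 TPM in WT and 5635 TPM in cKO), which the paper lists as pDC-associated. The next gene, C1qa, had means of 18.7 TPM in WT and 35.2 TPM in cKO, so these sums do not stand for the monocyte and macrophage list. The sum of 4 T cell genes in pDCs was 496.6 to 794.1 TPM in WT and 299.6 to 366.2 TPM in cKO. Nearly all of it came from the 1 T cell gene that was tested there (log2 fold change -0.85). The others had a mean under 1 TPM, so the sum does not stand for the T cell list. The part of these marker genes in the differences of the members was not tested. In sorted bulk samples, fewer cells of a type and less RNA per cell cannot be told apart.

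In WT cells the members differed widely in level, and Pmaip1 was the most abundant in each subset. Its mean was 86.0 ± 20.6 TPM (SD, n = 3) in pDCs, 494.5 ± 217 TPM (n = 2) in cDC1s and 823.7 ± 424 TPM (n = 3) in cDC2s, and its libraries were apart from those of the next member in every group. In pDCs, Bad, Bbc3 and Bid followed at mean levels of 39.9 ± 3.05, 34.2 ± 5.96 and 32.2 ± 2.19 TPM, and neighbours in this order overlapped. Bcl2l11 and Bmf were lower, at 15.9 ± 4.37 and 12.1 ± 4.09 TPM, and overlapped each other. The order in cDC1s was Bid at 66.9 ± 4.79, Bcl2l11 at 44.1 ± 9.26, Bad at 27.6 ± 2.26, Bmf at 23.8 ± 3.83 and Bbc3 at 23.5 ± 6.10 TPM, where the last 3 overlapped. In cDC2s, Bmf at 36.6 ± 1.41, Bid at 31.8 ± 3.66 and Bbc3 at 30.5 ± 3.07 TPM came next to Pmaip1, with overlap between neighbours, and Bad at 19.2 ± 2.03 and Bcl2l11 at 13.99 ± 1.63 TPM were the lowest of the 6 expressed members. Thus Bcl2l11 ranked 3 of 7 in WT cDC1s and 6 of 7 in WT cDC2s.

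Bik, a BH3-only protein of the endoplasmic reticulum, was at or near 0 in all 16 libraries. It was listed at 0 in 4 of them, 1 WT pDC, 1 cKO pDC and both WT cDC1 libraries, and its highest value was 0.81 TPM in a WT cDC2 library. These levels stand for at most about 5.68 reads, and 3 reads correspond to 0.371 to 0.482 TPM for this gene. Bik did not reach the mean of 1 TPM needed for testing in either table, so no difference was detectable at this depth. The other 6 members were tested in both tables. The shallowest of their values was Bbc3 at about 67.0 reads in a cKO cDC1 library. These read numbers take the median length of the coding transcripts of a gene. For Bbc3 this is 485 bases in a range of 405 to 1814 bases, and a longer length would give more reads.

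**Figure D1:**
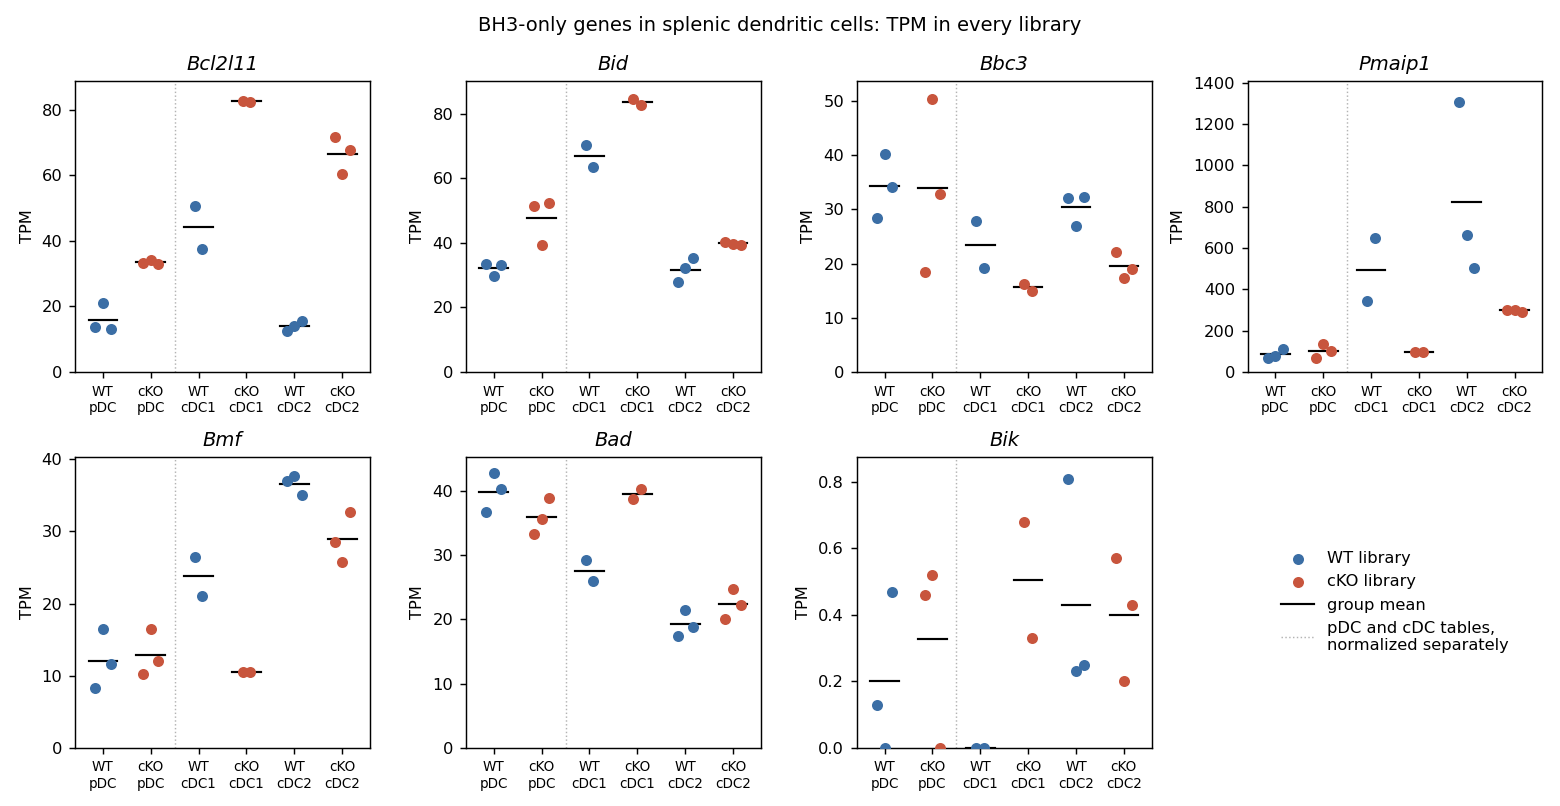
TPM (vertical axes, starting at 0, with a scale of its own in each panel) of the 7 BH3-only genes in each of the 16 libraries, by group. Points are libraries, blue for WT and red for cKO, black bars are group means, and the dotted line separates the pDC and cDC tables, which were normalized separately. The cKO points of Bcl2l11 lie above the WT points of the same subset in all 3 subsets, whereas those of Pmaip1 lie below in cDC1s and cDC2s.

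Bcl2l11 encodes BIM in several isoforms that share the BH3 stretch shown, and its level was higher in cKO than in WT libraries of all 3 subsets, with the largest fold change in cDC2s. In WT cDC2s the 3 libraries held 12.4, 13.9 and 15.7 TPM, and in cKO cDC2s 71.7, 60.5 and 67.6 TPM. The groups did not overlap, and the lowest cKO library was well above the highest WT library. The log2 fold change on log2(TPM + 1) was 2.17 ± 0.13 (SE, adjusted p = 6.4e-06), so Bcl2l11 rose in cKO cDC2s. A gene was called where the adjusted p of limma was at most 0.01 and the absolute log2 fold change at least 0.5. Among the 11411 genes tested in cDC2s, Bcl2l11 ranked 17 by p and 28 by the size of the increase.

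In cDC1s the WT libraries held 50.7 and 37.6 TPM of Bcl2l11, and the cKO libraries 82.7 and 82.5 TPM. The cKO pair was again above both WT libraries. Bcl2l11 rose by 0.90 ± 0.16 on the log2 scale (adjusted p = 0.00159). The call depended on single libraries. It stood without the first WT library but was missed without the second WT library (log2 fold change 0.69, adjusted p = 0.0113), without the first cKO library (0.90, adjusted p = 0.0170) and without the second cKO library (0.91, adjusted p = 0.0138), each with the remaining library assumed to vary like the other groups.

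In pDCs the WT libraries held 13.6, 21.0 and 13.2 TPM of Bcl2l11, and the cKO libraries 33.3, 34.3 and 33.0 TPM. All cKO libraries were above all WT libraries, and 1 WT library stood above the other two. The log2 fold change was 1.06 ± 0.16 with an adjusted p of 0.0132, which missed the threshold of 0.01. Same-numbered WT and cKO pDC libraries deviated together from their group means, and with the replicate number as a block the adjusted p was 0.00191 and the fold change was past both thresholds. It was also past them without the second WT library (1.26, adjusted p = 0.00238). Among the 11299 genes tested in pDCs, Bcl2l11 ranked 166 by p.

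The increase of Bcl2l11 was unequal in the conventional subsets. WT cDC1s held 44.1 TPM on average and WT cDC2s 13.99 TPM, a log2 difference of 1.58 ± 0.14 (adjusted p = 8.29e-06), so WT cDC1s were higher. The cKO means were 82.6 ± 0.141 TPM in cDC1s and 66.6 ± 5.66 TPM in cDC2s, with the cDC1 libraries above the cDC2 libraries. The genotype effect in cDC1s minus that in cDC2s was -1.27 ± 0.20 on the log2 scale (adjusted p = 0.00507), a smaller increase in the subset with the higher WT level. This difference kept its direction in all 19 alternative fits, where it ran from -1.50 to -1.06. Its adjusted p was above 0.01 in 9 of them. Leaving out 1 library gave this in 6 of 10 fits: without the first WT cDC1 library (adjusted p = 0.0207), the first or second cKO cDC1 library (0.0346 and 0.0275), the second WT cDC2 library (0.0111), the first cKO cDC2 library (0.0142) or the third cKO cDC2 library (0.0193).

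**Figure D2:**
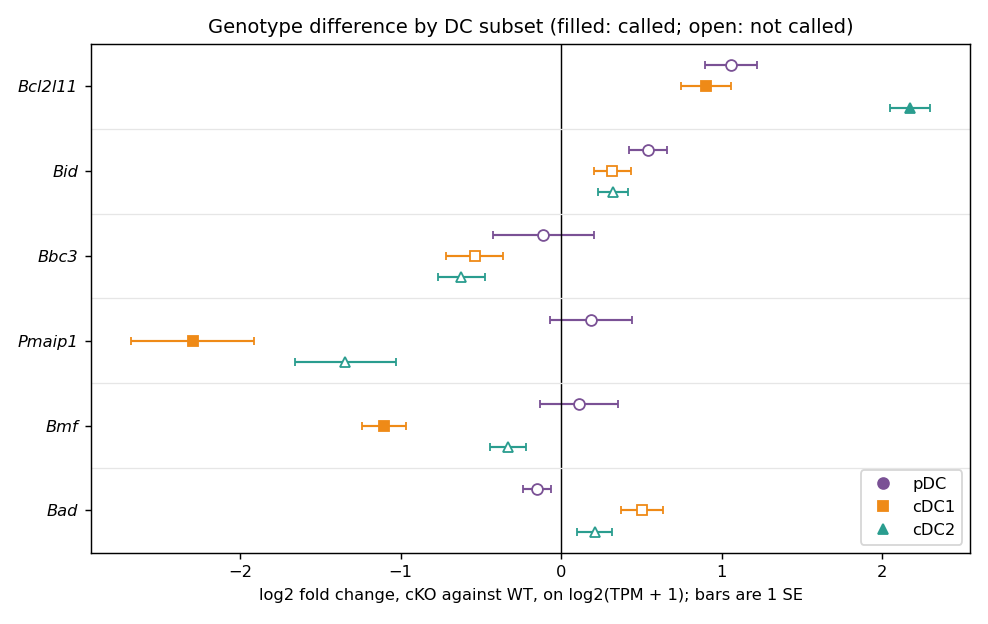
Log2 fold change of cKO against WT on log2(TPM + 1) (horizontal axis) for the 6 tested BH3-only genes, with circles for pDCs, squares for cDC1s and triangles for cDC2s. Bars are 1 SE, filled symbols were called, and Bcl2l11 lies to the right of 0 in each subset, furthest in cDC2s at 2.17.

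Bid encodes the BH3-only protein that caspase-8 cleaves into its active form. In pDCs its WT libraries held 33.6, 29.6 and 33.3 TPM and its cKO libraries 51.4, 39.2 and 52.2 TPM, without overlap. The log2 fold change was 0.54 ± 0.12 with an adjusted p of 0.0464, and with the replicate block the adjusted p was 0.00318, past the threshold. In cDC1s the WT libraries held 70.3 and 63.6 TPM and the cKO libraries 84.7 and 82.8 TPM. The difference of 0.32 ± 0.12 was not called (adjusted p = 0.0510). In cDC2s the values were 27.9, 32.1 and 35.2 TPM in WT and 40.3, 39.8 and 39.4 TPM in cKO. These groups did not overlap either, and the log2 fold change of 0.32 ± 0.09 had an adjusted p of 0.0391. The effect in cDC1s minus that in cDC2s was -0.003 ± 0.15. Thus Bid was higher in each cKO library than in any WT library of its subset. The same held for 10.8% of all genes tested in pDCs, 52.1% in cDC1s and 16.3% in cDC2s. The Bid differences did not pass the test without the block.

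Bbc3 encodes PUMA, which is known as a target of p53. Its cDC2 libraries held 32.1, 26.9 and 32.4 TPM in WT and 22.1, 17.4 and 19.0 TPM in cKO, and the groups did not overlap. The log2 fold change of -0.62 ± 0.15 was not called at an adjusted p of 0.0156. It was called under quantile normalization (-0.64, adjusted p = 0.00707) and without the first or second WT cDC1 library, which enter the shared estimate of the spread (adjusted p = 0.00811 and 0.00807). In cDC1s the WT libraries held 27.8 and 19.1 TPM and the cKO libraries 16.3 and 14.9 TPM. All cKO values were below the WT values, and the difference of -0.54 ± 0.18 had an adjusted p of 0.0359. It became a call under median-of-ratios scaling (-0.70, adjusted p = 0.00809), under quantile normalization (-0.67, adjusted p = 0.00929) and without the second WT cDC1 library (-0.80, adjusted p = 0.00958). In pDCs the WT values of 28.3, 40.2 and 34.1 TPM lay within the cKO range of 18.51, 50.3 and 32.7 TPM. The difference there was -0.11 ± 0.31 (adjusted p = 0.870), and it was positive without the second WT library (0.01) and without the first cKO library (0.25).

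Pmaip1, on chromosome 18, encodes NOXA, which binds mainly MCL1 and A1, and it showed the largest fold difference of any member in cDC1s. WT cDC1 libraries held 341.2 and 647.8 TPM, and cKO cDC1 libraries 95.1 and 94.9 TPM. The cKO values were close together and far below both WT values. Pmaip1 fell by 2.30 ± 0.39 on the log2 scale (adjusted p = 0.00143). The call was lost without the second WT cDC1 library (log2 fold change -1.83, adjusted p = 0.0108), without the first cKO library (-2.30, adjusted p = 0.0146) and without the second (-2.29, adjusted p = 0.0121). In cDC2s the WT libraries held 1304.5, 661.8 and 504.8 TPM and the cKO libraries 300.8, 302.2 and 290.4 TPM. All cKO libraries were below all WT libraries, and the WT values spread over a much wider range than the cKO values. The log2 fold change of -1.35 ± 0.31 was not called (adjusted p = 0.0154). It was called without the third WT cDC2 library (-1.64, adjusted p = 0.00506), and it was -0.95 (adjusted p = 0.0241) without the first. The effect in cDC1s minus that in cDC2s was -0.95 ± 0.50 (adjusted p = 0.224). In pDCs the levels were 69.5, 79.4 and 109.1 TPM in WT and 66.0, 133.5 and 101.8 TPM in cKO, with overlap, and the difference was 0.19 ± 0.26 (adjusted p = 0.714).

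Gene groups that mark the state of the cells also differed between the genotypes, and within a group Pmaip1 followed them only in part. The first WT cDC2 library, with 1304.5 TPM of Pmaip1, also held the highest summed level of 7 immediate-early genes (Fos, Jun, Egr1 and others), 14964 TPM against 5537 and 7263 TPM in the other WT cDC2 libraries and 3900 to 4429 TPM in cKO cDC2s. The WT cDC2 library with 504.8 TPM of Pmaip1 had the 7263 TPM, and the one with 661.8 TPM had the 5537 TPM. In cDC1s the immediate-early sum was 4155 and 6956 TPM in WT and 3168 and 3380 TPM in cKO, and the WT library with more Pmaip1 had the higher sum. Of these genes 2 of 7 fell in cDC1s (Junb, Egr1) and 1 of 7 in cDC2s (Egr1), beside 6.56% and 3.56% of all genes tested. In cDC1s 8 of 8 mature DC genes (Ccr7, Cd83, Relb, Il12b and others) fell, beside 6.56% of all genes tested. They summed to 1555 to 2147 TPM in WT and 247.5 to 321.6 TPM in cKO cDC1s. The WT cDC1 library with more Pmaip1 had the lower of these sums. The mature DC genes summed to 1195 to 1687 TPM in WT and 714 to 900.1 TPM in cKO cDC2s. There 2 of 8 fell (Ccr7, Cd83), beside 3.56% of all genes tested. The WT cDC2 library with the most Pmaip1 was at 1528 TPM, between the other WT cDC2 libraries. None of the defining markers was at 0 in either list. The part of these gene groups in the differences of Pmaip1, Bcl2l11 and the other members was not tested.

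**Figure D3:**
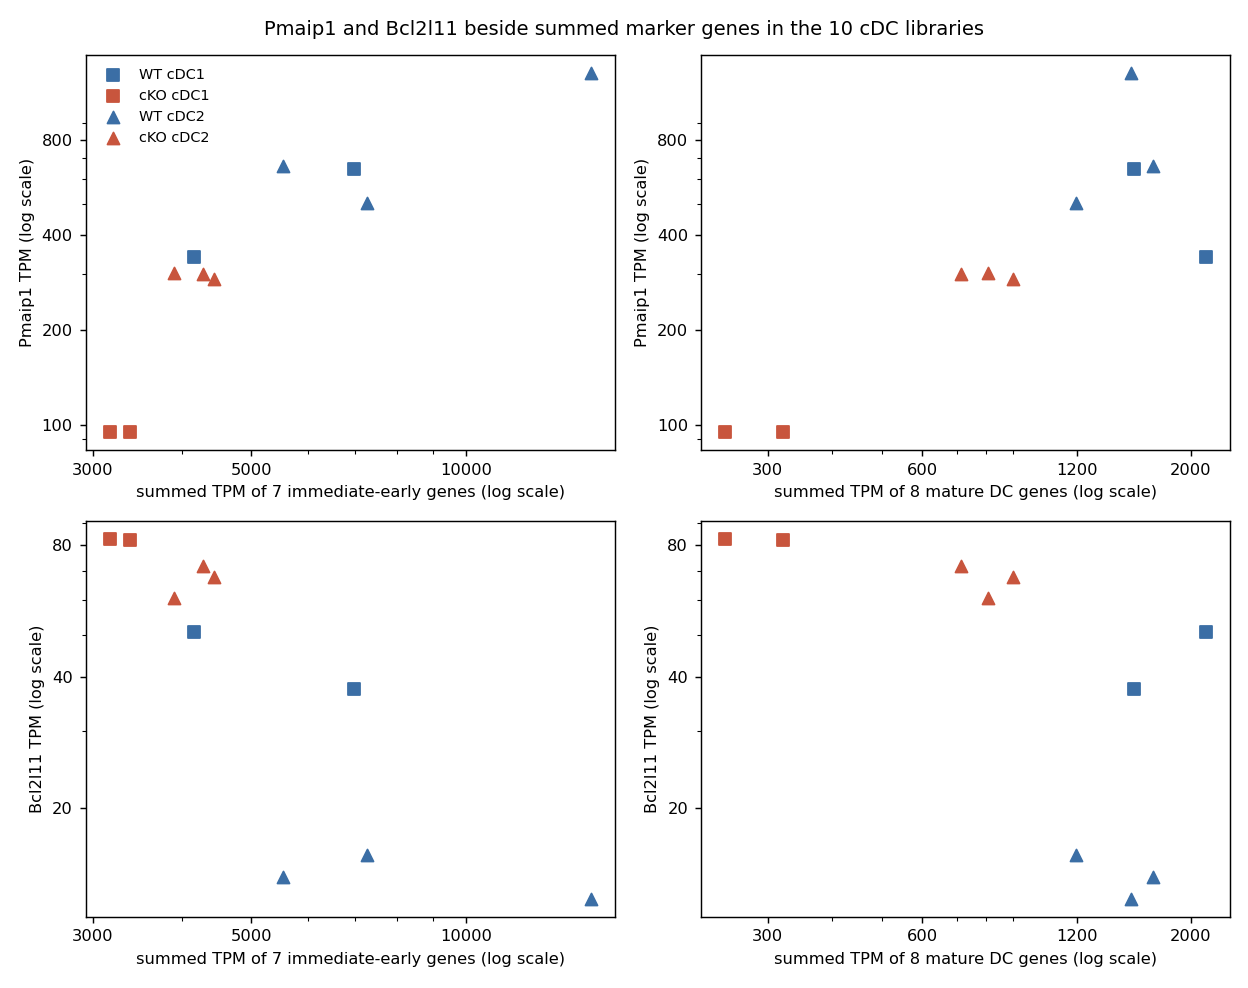
Pmaip1 (upper panels) and Bcl2l11 (lower panels) in TPM against the summed TPM of 7 immediate-early genes (left) and 8 mature DC genes (right), on log axes, in the 10 cDC libraries. Squares are cDC1s, triangles cDC2s, blue WT and red cKO, and the cKO libraries lie at lower Pmaip1, higher Bcl2l11 and lower mature DC sums than the WT libraries of their subset.

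Bmf encodes a BH3-only protein that is known to be held on the actin cytoskeleton through the dynein light chain encoded by Dynll2. It fell in cKO cDC1s, where WT libraries held 26.5 and 21.1 TPM and cKO libraries 10.5 and 10.5 TPM. The log2 fold change was -1.10 ± 0.14 (adjusted p = 3.23e-04), and Bmf was the member whose cDC1 call stood in all 19 alternative fits. In cDC2s the values were 37.0, 37.7 and 35.0 TPM in WT and 28.6, 25.7 and 32.7 TPM in cKO. The cKO libraries were below the WT libraries, but the difference of -0.33 ± 0.11 was not called (adjusted p = 0.0651). The effect in cDC1s minus that in cDC2s was -0.77 ± 0.18 with an adjusted p of 0.0261, and it was called under median-of-ratios scaling (-0.99, adjusted p = 0.00746). In pDCs the groups overlapped, with 8.30, 16.4 and 11.6 TPM in WT and 10.3, 16.5 and 11.99 TPM in cKO. The pDC difference was 0.11 ± 0.24 (adjusted p = 0.828), and it turned negative without the first WT library (-0.11) or the second cKO library (-0.07).

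Bad encodes a BH3-only protein that survival kinases phosphorylate and 14-3-3 proteins then hold in the cytosol. Its cDC1 libraries held 29.2 and 25.97 TPM in WT and 38.7 and 40.2 TPM in cKO, without overlap. The difference of 0.50 ± 0.13 had an adjusted p of 0.0136. In cDC2s the WT values of 17.4, 21.4 and 18.8 TPM overlapped the cKO values of 20.04, 24.8 and 22.2 TPM, at 0.21 ± 0.11 (adjusted p = 0.206). In pDCs Bad was at 36.7, 42.7 and 40.2 TPM in WT and at 33.2, 35.6 and 38.9 TPM in cKO, with overlap and a difference of -0.15 ± 0.09 (adjusted p = 0.377).

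Counted over the members, 0 of the 6 tested were called in pDCs, where 0.814% of all tested genes were called higher and 0.239% lower. At an unadjusted p under 0.05 there were 2 (Bcl2l11 and Bid), beside at least 2131 of the 11299 genes tested. The same 2 were called with the replicate block, which called 260 genes higher and 75 lower, against 92 and 27 without it. In cDC1s, 1 member was called higher (Bcl2l11) and 2 lower (Pmaip1 and Bmf), beside 15.8% and 6.56% of all genes tested. In cDC2s, 1 was called higher (Bcl2l11) and 0 lower, beside 3.59% and 3.56%. A difference of the genotype effect between cDC1s and cDC2s was called for 1 member (Bcl2l11, smaller in cDC1s) and for 0 in the other direction, beside 1.35% and 1.21% of all genes. No member was called lower in one subset and higher in another, and Bcl2l11 was the only member with a cKO level above WT and a call in both cDC subsets.

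Groups without overlap were common at these sample sizes and are read against the same share over all genes. In pDCs, 2 members (Bcl2l11 and Bid) had all cKO libraries above all WT libraries, beside 10.8% of all genes, and 0 had them below, beside 16.7%. In cDC1s, with 2 libraries a group, 3 members (Bcl2l11, Bad and Bid) were above and 3 (Bbc3, Pmaip1 and Bmf) below, beside 52.1% and 24.1%. In cDC2s, 2 (Bcl2l11 and Bid) were above and 3 (Bbc3, Pmaip1 and Bmf) below, beside 16.3% and 19.2%. The median log2 fold change of the 6 members was 0.15 in pDCs, -0.11 in cDC1s and -0.06 in cDC2s. Over all genes tested it was -0.05, 0.17 and -0.03. The cDC1 median of all genes depended on the scaling, at 0.02 under median-of-ratios scaling and 0.04 under quantile normalization, and higher calls made up 70.7% of all cDC1 calls as deposited but 49.9% and 52.4% under these scalings. Relative to the median of all genes, the cDC1 differences were 0.73 for Bcl2l11, 0.33 for Bad, 0.15 for Bid, -0.71 for Bbc3, -1.27 for Bmf and -2.47 for Pmaip1, and none of the 6 changed direction under any scaling.

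The balance among the members shifted with these levels. Bcl2l11 made up 0.866% to 2.44% of the summed TPM of the 7 members in WT cDC2s and 12.9% to 14.8% in cKO cDC2s. In cDC1s its share was 4.61% and 9.28% in WT and 25.2% and 25.3% in cKO, and in pDCs 5.46% to 9.14% in WT and 11.1% to 15.6% in cKO. The shares did not overlap between genotypes in any subset. The summed level itself was 642.1 to 1432 TPM in WT and 470.6 to 484.1 TPM in cKO cDC2s, 545.7 and 815.2 TPM in WT and 328.6 and 326.0 TPM in cKO cDC1s, and 190.2 to 242.0 TPM in WT and 213.1 to 309.9 TPM in cKO pDCs. Pmaip1 carried the lower sums in cKO cDCs, and the shares of the other members depend on its level.

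WT cDC1s and WT cDC2s differed in 4 of the 6 tested members. Besides Bcl2l11, Bid was higher in cDC1s by 1.06 ± 0.11 on the log2 scale (adjusted p = 1.9e-05) and Bad by 0.50 ± 0.12 (adjusted p = 0.00641). Bmf was lower in cDC1s by a log2 difference of -0.61 ± 0.13 (adjusted p = 0.00274). These 3 higher and 1 lower calls stand beside 10.9% and 20.8% of all genes tested, and the same members had no overlap between the groups, beside 20.8% higher and 41.5% lower. Pmaip1 at -0.69 ± 0.35 (adjusted p = 0.132) and Bbc3 at -0.38 ± 0.16 (adjusted p = 0.0778) were not called. The calls of Bcl2l11 and Bid stood in all 18 alternative fits. That of Bad, whose difference lies at the fold threshold, was lost in 9 of 18 and had an adjusted p of 0.0605 without the first WT cDC1 library. The call of Bmf was lost without the second WT cDC1 library (-0.45, adjusted p = 0.0358), under median-of-ratios scaling (-0.42) and under quantile normalization (-0.47).

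**Figure D4:**
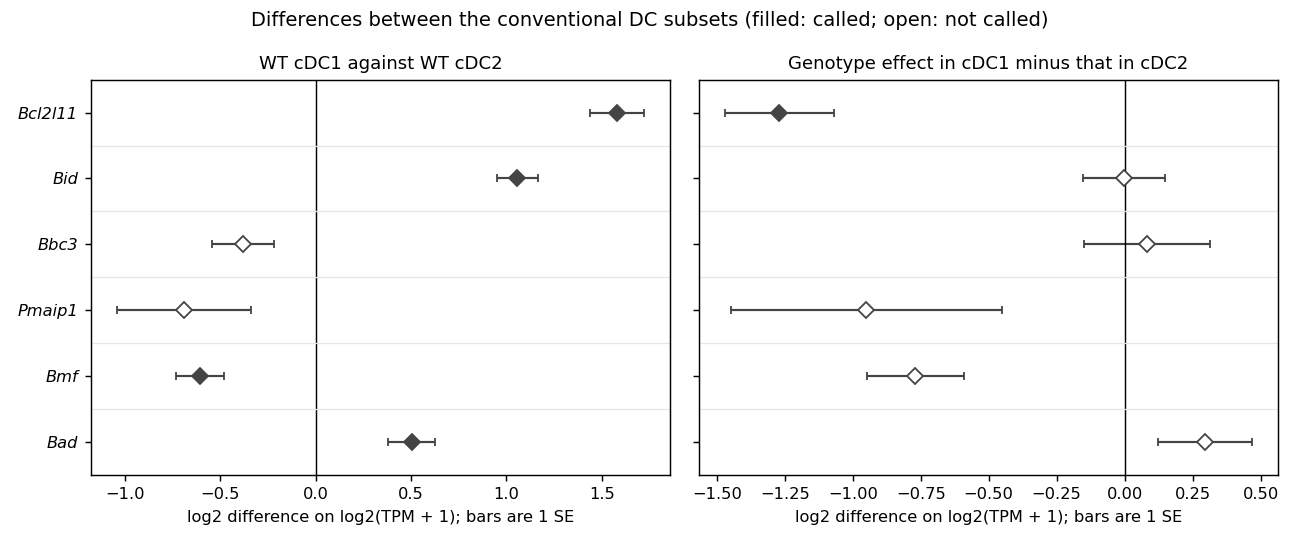
Log2 differences on log2(TPM + 1) (horizontal axes, bars 1 SE) for the 6 tested BH3-only genes. The left panel sets WT cDC1s against WT cDC2s, the right panel gives the genotype effect in cDC1s minus that in cDC2s, filled symbols were called, and Bcl2l11 lies at 1.58 on the left and -1.27 on the right.

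The prosurvival proteins that BH3-only proteins bind were tested as 7 genes. In cDC1s, where the most genes were called of the 3 subsets, 1 rose and 3 fell, beside 15.8% and 6.56% of all genes tested. In pDCs and in cDC2s 0 were called, and 2 each had an unadjusted p under 0.05. Over all genes tested, at least 2131 of 11299 in pDCs and 3834 of 11411 in cDC2s were under it. Bcl2, which encodes the founding prosurvival member, rose in cKO cDC1s from 5.46 ± 3.09 to 13.4 ± 2.84 TPM (log2 fold change 1.23 ± 0.29, adjusted p = 0.00711). Bcl2l1, the gene of BCL-XL, fell from 14.2 ± 1.97 to 7.61 ± 0.0990 TPM (-0.82 ± 0.20, adjusted p = 0.00947). A1 is encoded by near-identical copies, among which short reads can be split wrongly. Bcl2a1a fell from 283.6 ± 9.69 to 131.3 ± 17.8 TPM (-1.11 ± 0.23, adjusted p = 0.00405) and Bcl2a1b from 453.4 ± 51.0 to 125.0 ± 55.8 TPM (-1.92 ± 0.33, adjusted p = 0.00173). Mcl1, whose short-lived product binds NOXA and BIM, was at 451.2 ± 14.5 TPM in WT and 363.1 ± 19.8 TPM in cKO cDC1s, at -0.31 ± 0.12 (adjusted p = 0.0693). In cDC2s Mcl1 was at 565.8 ± 80.05 and 439.9 ± 5.87 TPM (-0.35 ± 0.10, adjusted p = 0.0362). The median log2 fold change of the prosurvival genes was 0.06 in pDCs, -0.82 in cDC1s and -0.29 in cDC2s.

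Among the pore-forming effectors and apoptosome genes, 7 of 8 were tested. In cDC1s 2 rose, beside 15.8% of all genes tested, and these were Bak1, which encodes the effector BAK (185.2 ± 7.59 to 265.6 ± 8.49 TPM, log2 fold change 0.52 ± 0.12, adjusted p = 0.00637), and Apaf1, the scaffold of the apoptosome (36.3 ± 3.73 to 56.2 ± 3.73 TPM, 0.62 ± 0.12, adjusted p = 0.00304). In pDCs and cDC2s 0 of 7 were called, and 4 in each had an unadjusted p under 0.05. Of all genes tested, at least 2131 of 11299 in pDCs and 3834 of 11411 in cDC2s were under it. Relative to the median of all genes tested in cDC1s, the differences were 0.35 for Bak1 and 0.45 for Apaf1, both under the fold limit of 0.5. The median over the 7 genes was 0.15 in pDCs, 0.33 in cDC1s and 0.21 in cDC2s.

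**Figure D5:**
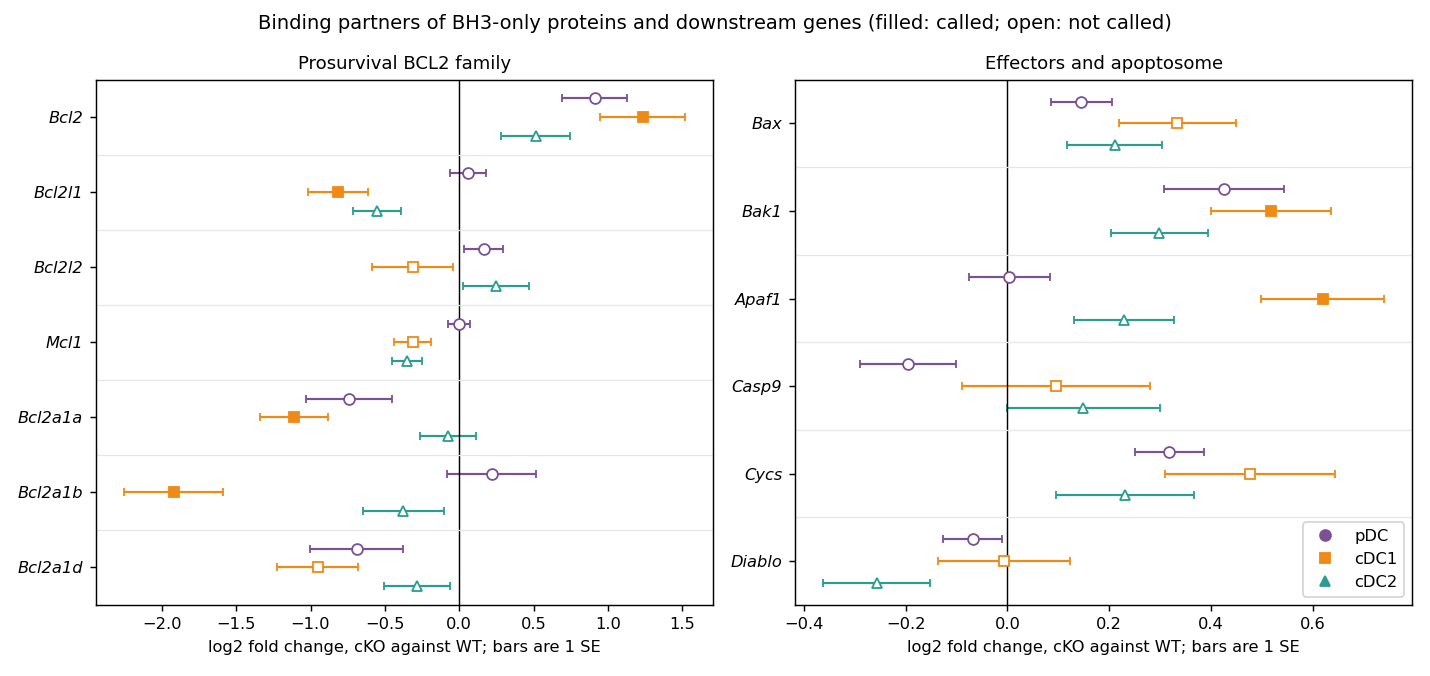
Log2 fold change of cKO against WT on log2(TPM + 1) (horizontal axes, bars 1 SE) for 7 prosurvival BCL2 genes (left) and 6 effector and apoptosome genes (right), with circles for pDCs, squares for cDC1s and triangles for cDC2s. Filled symbols were called, and all 6 filled symbols are cDC1s.

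Proteins known to hold, cleave or degrade BH3-only proteins were tested as 11 genes. In cDC1s 2 of 11 rose, near the 15.8% of all genes tested, and both encode 14-3-3 proteins, which bind phosphorylated BAD, Ywhae (388.8 ± 7.93 to 692.2 ± 21.0 TPM, log2 fold change 0.83 ± 0.09, adjusted p = 1.66e-04) and Ywhag (115.6 ± 6.10 to 167.1 ± 10.6 TPM, 0.53 ± 0.12, adjusted p = 0.00683). Relative to the median of all genes tested in cDC1s, the differences were 0.66 for Ywhae and 0.35 for Ywhag, the latter under the fold limit of 0.5. In pDCs and cDC2s 0 were called, with 5 and 3 at an unadjusted p under 0.05. That p was also reached by at least 2131 of all 11299 genes in pDCs and 3834 of 11411 in cDC2s. Dynll1, whose product tethers BIM to the dynein motor, differed by 0.31 ± 0.13 in pDCs, 0.29 ± 0.09 in cDC1s and -0.02 ± 0.08 in cDC2s, and was not called in any. Of 4 other genes with a BH3 motif, Hrk was not in the pDC table and was at most 0.02 TPM in cDCs. Of Bnip3, Bnip3l and Becn1 none was called in a genotype comparison by limma. An unadjusted p under 0.05 was found for 0 in pDCs, 1 in cDC1s and 1 in cDC2s. In cDC1s at least 5528 of all 11411 genes were under it. Bnip3l, a mitophagy receptor, was lower in WT cDC1s than in WT cDC2s (44.2 ± 0.240 against 66.2 ± 7.99 TPM, log2 difference -0.57 ± 0.11, adjusted p = 0.00152).

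Of transcription factors known to act on BH3-only genes, 8 of 9 were tested in each table, and 2 rose in cDC1s and 1 in cDC2s, beside 15.8% and 3.59% of all genes tested. E2f1 rose in cDC1s from 26.5 ± 1.90 to 62.8 ± 0.629 TPM (log2 fold change 1.21 ± 0.14, adjusted p = 2.24e-04) and in cDC2s from 25.7 ± 3.58 to 50.6 ± 5.27 TPM (0.95 ± 0.12, adjusted p = 6.73e-04). Myc rose in cDC1s from 19.6 ± 4.77 to 85.6 ± 6.75 TPM (2.09 ± 0.25, adjusted p = 2.42e-04). Summed over 6 cycling genes (Mki67, Top2a and others), the level was also higher in cKO libraries. It was 414.7 to 461.5 against 150.1 to 229.2 TPM in cDC1s and 368.6 to 456.8 against 232.3 to 348.4 TPM in cDC2s. In pDCs it was 53.9 to 133.2 against 8.55 to 9.90 TPM. Of the 6 genes, 4 rose in cDC1s and 4 in pDCs, beside 15.8% and 0.814% of all genes tested. In cDC2s 0 of the 6 were called, beside 3.59% called higher. The part of the cycling genes in the differences of E2f1, Myc and the members was not tested. Foxo3, a known activator of Bcl2l11, was at 15.8 ± 0.255 TPM in cKO and 16.6 ± 0.983 TPM in WT cDC1s (-0.07 ± 0.18, adjusted p = 0.774), and at 26.1 ± 5.31 and 30.3 ± 3.90 TPM in cDC2s (-0.22 ± 0.14, adjusted p = 0.314). Spi1, the gene of PU.1, differed by 0.13 ± 0.14 in cDC1s (adjusted p = 0.479) and 0.12 ± 0.11 in cDC2s (adjusted p = 0.474). Foxo1 differed by -0.48 ± 0.18 in cDC1s (adjusted p = 0.0561) and 0.03 ± 0.15 in cDC2s (adjusted p = 0.923). In pDCs Foxo3 was at 40.2 ± 3.35 in cKO and 40.9 ± 6.14 TPM in WT (-0.02 ± 0.11, adjusted p = 0.944). There 0 of the 8 factors were called and 2 had an unadjusted p under 0.05, beside at least 2131 of 11299 genes tested. Between WT cDC1s and WT cDC2s, Ddit3 (-0.66), Jun (-1.77) and Foxo3 (-0.82) were lower in cDC1s on the log2 scale, and Cycs (0.73), Dynll2 (0.94) and Ywhaz (0.51) were higher.

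Genes were also ranked by how closely their level followed that of Bcl2l11, as a description over libraries that share their subset and genotype. Over the 10 cDC libraries the highest Pearson r on log2(TPM + 1) among 11411 genes was 0.995, for the gene with NCBI gene ID 115487367, which carried no symbol in the RefSeq table. It was followed by Def8 (0.993), the aldehyde dehydrogenase gene Aldh2 (0.973), Cisd2 (0.967) and Ripk3 (0.965), the kinase of necroptosis. Over the 6 pDC libraries the 5 genes were Galnt3 (0.997), Tm4sf5 (0.995), Cmbl (0.990), Pgs1 (0.988) and Rpl24 (0.985), none of them among the 5 in cDCs. With 6 libraries in 2 groups, such values rest mainly on the difference between the genotypes. Between members over the 10 cDC libraries, Bid and Bad had the highest r (0.94) and Bmf and Bad the lowest (-0.94). Bcl2l11 had r = -0.84 with Pmaip1, -0.83 with Bbc3, -0.68 with Bmf, 0.69 with Bid and 0.69 with Bad.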

How the data were processed

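The 16 libraries were RNA-seq of sorted splenic DCs. The authors filtered single-end 50-base reads and estimated expression per gene with RSEM, and the submitters' processing notes name HISAT2 2.0.4, Bowtie2 2.2.5, RSEM 1.2.12 and the mm10 build. The deposited TPM values are in 1 table for pDCs and 1 for cDCs. The deposited FPKM values of these libraries served for the depth estimate and as an alternative. Samples were grouped by their titles, and all 32 value columns were mapped. The 7 members and all gene lists were chosen with earlier results of these data known.

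Symbols and positions came from NCBI RefSeq, assembly GRCm38.p6 (17079 of 17128 and 17667 of 17721 named). Genes with a mean of at least 1 TPM were tested on log2(TPM + 1), which understates the change of low genes, with limma 3.58.1 in R 4.3.3 (lmFit, eBayes with trend, two-sided, Benjamini-Hochberg over 11299 or 11411 genes). limma took the place of the count model of the study, because the values are not counts. The pDC fit held 6 libraries, and the 10 cDC libraries were fitted together as 4 group means that share 1 spread. Errors are SDs of TPM and SEs of log2 fold changes. The named genes are the 7 members, Trim33, every called gene of a pathway list (where at most 5 were called) and the 5 genes most like Bcl2l11 in each table. Mcl1, Dynll1, Foxo3, Foxo1 and Spi1 were named after their values were seen. Values of 1 gene of the effector list are not reported here. Depth was estimated from the steps of low FPKM values over a scan from 12 to 30 M reads, and read limits cover counting error only. The fits and the depth estimate were tested on simulated data. Whether a number marks a shared mouse or day is not given in the sources used here. Same-numbered pDC libraries deviated together (r = 0.310, 0.392 and 0.206), so the numbers were taken to pair pDC libraries, a choice made from these same data. Those of cDC2s (-0.249, 0.253 and -0.165) and cDC1s (-0.233) did not. In cDC2s, WT library 3 and cKO library 1, of unlike number, reached 0.468. Alternatives were another pseudocount (0.1), filter (none, or a mean of 5 TPM), scaling (median of ratios, quantile, FPKM), spread model, the replicate block, looser thresholds and leaving out each library. The rest was done in Python 3.11.15 with pandas 2.3.3, numpy 2.4.6 and, for plots, matplotlib 3.10.9.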

Additional observations from a re-analysis of the deposited data

Results flagged for a closer look

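The genotype effect on Bcl2l11 differed between the conventional subsets, and it is listed here because the difference itself passed the test of the interaction in limma. The effect in cDC1s minus that in cDC2s was -1.27 on the log2 scale (SE 0.20, adjusted p = 0.00507), with increases of 0.90 in cDC1s and 2.17 in cDC2s, and both cKO cDC1 and all 3 cKO cDC2 libraries above the WT libraries of their subset. The WT level was 44.1 TPM in cDC1s and 13.99 TPM in cDC2s. No group held the 4 or more libraries that a search for single outlying samples needs.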

How the results depend on the processing

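Counts of called members moved as follows. In pDCs (0 as reported) there were 2 with an adjusted p of at most 0.05 and no fold limit, 2 with the replicate block, and 0 to 1 when single libraries were left out. The block is given beside the pDC results because same-numbered libraries deviated together there. That pairing was read from these same libraries and is not stated by the sources. In cDC1s (3) there were 4 after either other scaling, 5 under the looser thresholds and 1 to 3 without single libraries. Over all genes tested in cDC1s, at least 4425 of 11411 met the looser thresholds. Median-of-ratios scaling called 1067 genes higher and 1070 lower there, and quantile normalization 1060 and 962. In cDC2s (1) there were 2 under quantile normalization, 4 under the looser thresholds and 1 to 2 without single libraries. Quantile normalization called 563 genes higher and 428 lower in cDC2s. The looser thresholds were met by at least 2165 of all 11411 genes in cDC2s and 461 of 11299 in pDCs. For the difference between cDC1s and cDC2s (1) there were 0 without a filter, 2 under median-of-ratios scaling and 2 under the looser thresholds. There were 0 with the replicate block and 0 to 1 without single libraries. For this difference at least 1235 of all 11411 genes met the looser thresholds, and median-of-ratios scaling called 100 higher and 281 lower. For WT cDC1s against WT cDC2s (4) there were 3 without a filter, 3 after either other scaling and 2 to 4 without single libraries. Over all genes, this WT comparison called 1262 higher and 2302 lower without a filter. It called 1819 and 1718 under median-of-ratios scaling, and 1761 and 1609 under quantile normalization. With the cDC1 numbers crossed, chosen after seeing the data, the block gave 4 calls in cDC1s, 1 in cDC2s and 0 for the difference. Over all genes the crossed block called 1477 higher and 614 lower in cDC1s, 211 and 212 in cDC2s, and 39 and 72 for the difference. The replicate block in cDCs, where same-numbered libraries did not all deviate together, left 3 calls in cDC1s, 1 in cDC2s and 3 between WT subsets. Over all genes it called 1325 higher and 565 lower in cDC1s, 190 and 166 in cDC2s, and 1228 and 2096 between WT subsets.

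Of 564 single-gene values under alternatives, 504 kept direction and call, 27 lost the call, 20 gained it and 13 turned direction, none of the 13 a called gene. Without single libraries these were, in pDCs, Bmf (-0.11 to 0.34), Bbc3 (-0.44 to 0.25) and Pmaip1 (-0.043 to 0.46), and for the difference between the cDC subsets Bid (-0.079 to 0.083) and Bbc3 (-0.18 to 0.34). The last was also -0.016 in FPKM, -0.033 after quantile normalization and -0.13 after median-of-ratios scaling. The cause was not tested. Having 2 libraries a group limits the cDC1 results, and TPM values carry no counts for a count test.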
